A study of Rattus norvegicus with 11 samples.

Results

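The 6 genes described here carry ketone bodies into brain cells and prepare them for oxidation: Oxct1, Bdh1 and Acat1 encode mitochondrial enzymes, Slc16a1 and Slc16a7 encode the monocarboxylate transporters MCT1 and MCT2, and Bsg encodes basigin, a partner protein of MCT1. They were taken by name, as every probe set whose only gene symbol in the platform annotation is 1 of these 6, dim probe sets included. This gave 7 of the 15923 probe sets on the array, for 6 of the 10412 genes with such a probe set, and no probe set with several symbols held 1 of them. Total RNA of rat hippocampus (Rattus norvegicus) was hybridised to 11 arrays: 6 of a control diet group and 5 of a ketogenic diet group, the ketogenic diet being high in fat, low in carbohydrate and used against epileptic seizures. For strain, sex, age, the make-up of either diet and the time on it, the labels used here give nothing. They number the samples within each diet without naming separate animals, and the p-values thus measure spread between samples, which may be technical.

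Ketone bodies are made mainly in the liver from fatty acids during fasting or carbohydrate restriction, and the brain takes up 3-hydroxybutyrate and acetoacetate from the blood as fuel. Both are monocarboxylates, as are lactate and pyruvate, and all of these cross membranes with a proton through the same family of transporters. MCT1 is known in brain from endothelium and glia and MCT2 from neurons. Inside mitochondria, 3-hydroxybutyrate is oxidised to acetoacetate, acetoacetate receives coenzyme A from succinyl-CoA, and the product is split into acetyl-CoA for the citric acid cycle.

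The arrays were compared before the genes were. On the first principal component of the tested probe sets, which held 34.5% of the variance, the controls lay between -17.3 and -10.6 and 4 ketogenic arrays between 18.6 and 25.7, while ketogenic replicate 3 lay at -2.82, nearer to the controls. That sample is also the only 1 whose title has a final letter b, which the labels do not explain. The log2 ratio of the 3′ to the 5′ control probe set, which depends on the length of the labelled RNA, differed by 0.20 for Gapdh, higher in the ketogenic group (controls -0.068 to 0.148, ketogenic 0.127 to 0.344) and 0.19 higher for actin (0.487 to 0.750 and 0.755 to 0.985, with no overlap). Median deposited intensities ran from 89.2 to 94.2 on control and from 79.9 to 87.9 on ketogenic arrays, so diet and any handling difference that followed it cannot be told apart from these labels. Hippocampal neuron markers were also read: in controls the mean log2 signal was 8.21 for Prox1, a dentate granule cell gene, 9.72 for Wfs1, a CA1 gene, and 7.84 for Neurod2. Over the 8 tested markers it ran from 5.77 (Grik4) to 10.6 (Nrgn), and probe sets below 5.17 were not tested. Most probe sets lie above that level by its definition and no other tissue was compared, so these signals cannot check the tissue label. Values below are log2 signals after quantile normalization between arrays, differences are ketogenic minus control, errors of means are SDs, and a probe set is called where limma's adjusted p is below 0.05.

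Of these genes, Oxct1 fell on the ketogenic diet, by 0.37 on the log2 scale or 1.29-fold, and the other 5 did not pass the test. Slc16a1 came nearest, at -0.25, and all 5 ketogenic values of both genes lay below the control mean. Of the 7 probe sets 6 were bright enough to test and 1 of the 6 was called, against 16.5% of all 11899 tested probe sets; called in the lower direction was again 1 of 6, against 7.87%. With a single call among 6, the share is near that over the whole array and is no result about the group. Estimates were negative for 4 and positive for 2, with a median of -0.12 against -0.0041 over all tested probe sets. The diets overlapped for every tested probe set of these genes, so 0 of 6 were fully separated, against 6.99% of all tested probe sets. Without ketogenic replicate 3, 1 of the 6 was likewise called, and 3165 probe sets in place of 1962 were called over the array.

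**Figure D1:**
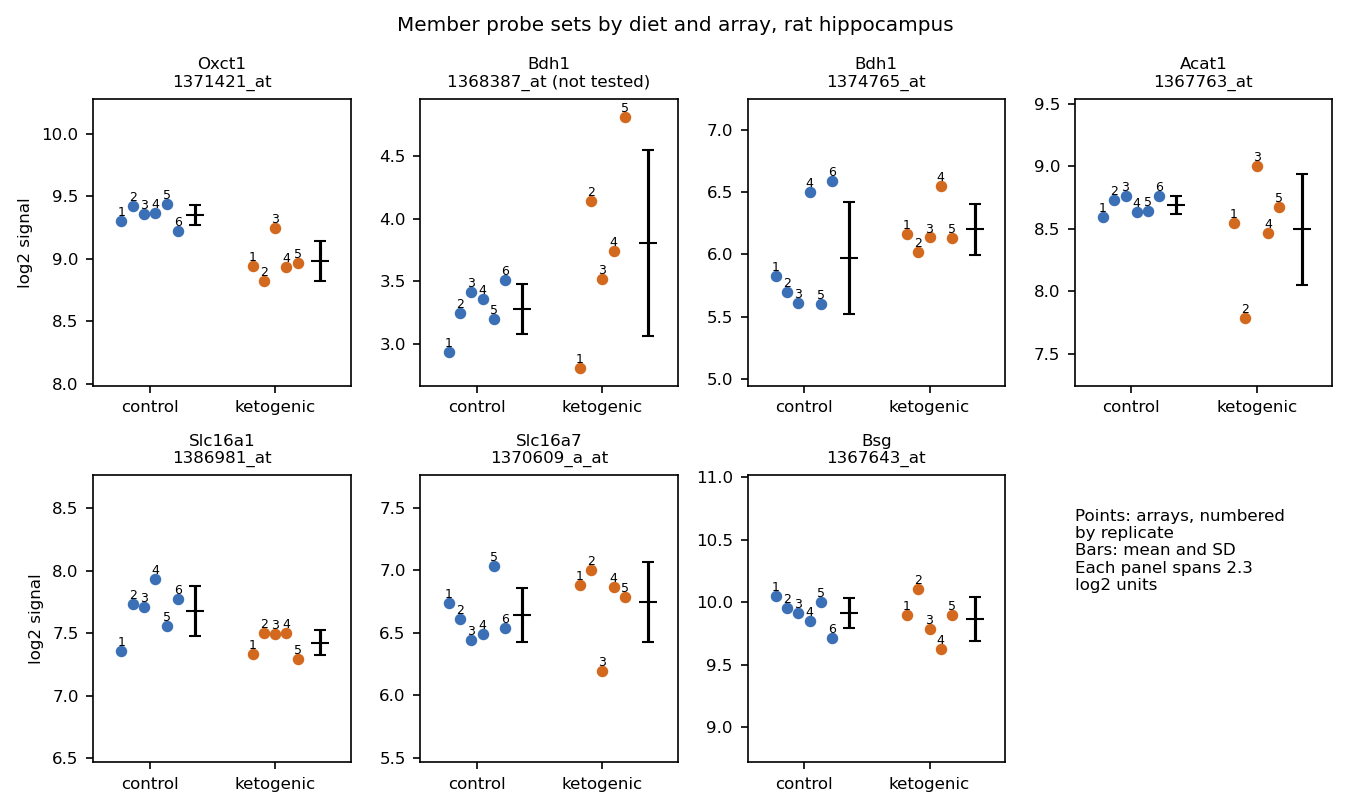
Log2 signal of each of the 7 probe sets (1 panel each) on the 6 control and 5 ketogenic arrays, with 1 numbered point per array and a bar at each diet's mean. In the Oxct1 panel 4 of 5 ketogenic arrays lie below every control, while replicate 3, at 9.24, lies just above the lowest control at 9.22.

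Oxct1 encodes succinyl-CoA:3-ketoacid CoA transferase, or SCOT, the mitochondrial enzyme that gives acetoacetate its coenzyme A. The sequence of the 250 bases before its start in RefSeq (assembly GRCr8, plus strand, chr2:54963714-54963963) is shown because this gene carries the only call among the 6, beside that of Slc16a1 (chr2:194812410-194812659, plus strand), the gene nearest to the threshold. Lower case runs 5′ to 3′ and ends at the base before the start, and capitals mark matches to the motifs named after the sequences.
Oxct1: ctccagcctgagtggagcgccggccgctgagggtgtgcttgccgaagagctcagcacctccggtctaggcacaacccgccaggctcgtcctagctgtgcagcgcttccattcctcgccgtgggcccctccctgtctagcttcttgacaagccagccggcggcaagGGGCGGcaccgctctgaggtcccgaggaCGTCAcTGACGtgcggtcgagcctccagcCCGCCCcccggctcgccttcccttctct
Slc16a1: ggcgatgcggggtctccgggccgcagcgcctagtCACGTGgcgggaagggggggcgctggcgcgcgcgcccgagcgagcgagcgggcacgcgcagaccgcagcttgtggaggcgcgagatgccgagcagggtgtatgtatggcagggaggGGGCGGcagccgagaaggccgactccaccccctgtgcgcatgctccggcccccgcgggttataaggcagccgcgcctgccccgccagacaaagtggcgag
Promoters of all 6 genes were found in RefSeq's table and searched on both strands for TGACGTCA (the cAMP response element), its part TGACG, which every full element also contains, CACGTG (E-box), GGGCGG (GC box), CCAAT and TATAAA. The Oxct1 window held TGACG on the minus strand 57 bases and on the plus strand 51 bases before the start, and GGGCGG at 85 bases (plus) and 28 bases (minus). The Slc16a1 window held CACGTG at 216 bases and GGGCGG at 100 bases before the start. TGACG was present in 18.2% of 33469 rat promoter windows of this length, CACGTG in 5.59% and GGGCGG in 30.5%. G and C made up 68.8% of the Oxct1 window and 74.0% of the Slc16a1 window, against a median of 51.2% over all windows. These matches describe letters only, and no binding was measured.

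The Oxct1 probe set, 1371421_at, gave control signals of 9.30, 9.42, 9.36, 9.37, 9.44 and 9.22 in replicates 1 to 6. Its ketogenic signals were 8.94, 8.82, 9.24, 8.93 and 8.97 in replicates 1 to 5. The controls lay close together and 4 ketogenic arrays lay under all of them, while ketogenic replicate 3, the array that stood apart, fell within the control range. Means were 9.35 ± 0.081 (n = 6) and 8.98 ± 0.158 (n = 5), or 629 ± 26.0 and 523 ± 52.3 as deposited linear intensities. The difference was -0.37 (SE 0.072, 95% interval -0.53 to -0.22, adjusted p = 0.00626, limma), which on a linear scale is a ratio of 0.694 to 0.860. By p-value it ranked 226 among all tested probe sets, and 15.5% of them had a larger difference in either direction, so its place came from a small spread as well as from its size: 80.2% of probe sets varied more between arrays of a diet. Without ketogenic replicate 3 the difference was -0.44 (adjusted p = 0.0005).

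The Oxct1 values were also set beside the ratios of 3′ to 5′ control probe sets. With the Gapdh and actin ratios added to the fit as covariates, its difference was -0.07 (SE 0.10, 95% interval -0.29 to 0.16, adjusted p = 0.961), and 6 probe sets were called over the whole array. The actin ratio did not overlap between diets, so in this fit the ratios and diet can hardly be told apart. Within the 6 controls, where diet did not vary, the order of the arrays by Oxct1 was the exact reverse of their order by the Gapdh ratio, from replicate 5 (9.44, ratio -0.068) to replicate 6 (9.22, ratio 0.148). Pearson's r was -0.914 and Spearman's rho -1 (exact permutation p = 0.00278 for each, two-sided, the smaller tail doubled, which is the smallest that 6 arrays can give), with an adjusted p of 0.0333 over 12 relations, 6 genes by 2 ratios. Leaving out the 2 arrays farthest from the median ratio left 4 arrays and an r of -0.963. Those 4 had ratios of only 0.029 to 0.063, too few arrays over too narrow a range for this r to add anything. The actin ratio gave r = -0.559 (exact permutation p = 0.203) and rho = -0.6 (exact permutation p = 0.242), and the adjusted p of the 11 other relations was 0.487 or higher. The relation was picked after the values had been seen, so its p supports nothing. Over all 11899 tested probe sets, 19 (0.160%) had the exact reverse order and 23 (0.193%) the same order as the ratio. By count, 1 of the 720 possible orders is 0.139%. The order was thus not particular to Oxct1, and these shares cannot say whether its own order is related to the ratio. The 5 ketogenic arrays are too few for such a relation, and the part of the ratios in the difference between diets was not tested beyond these values.

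**Figure D2:**
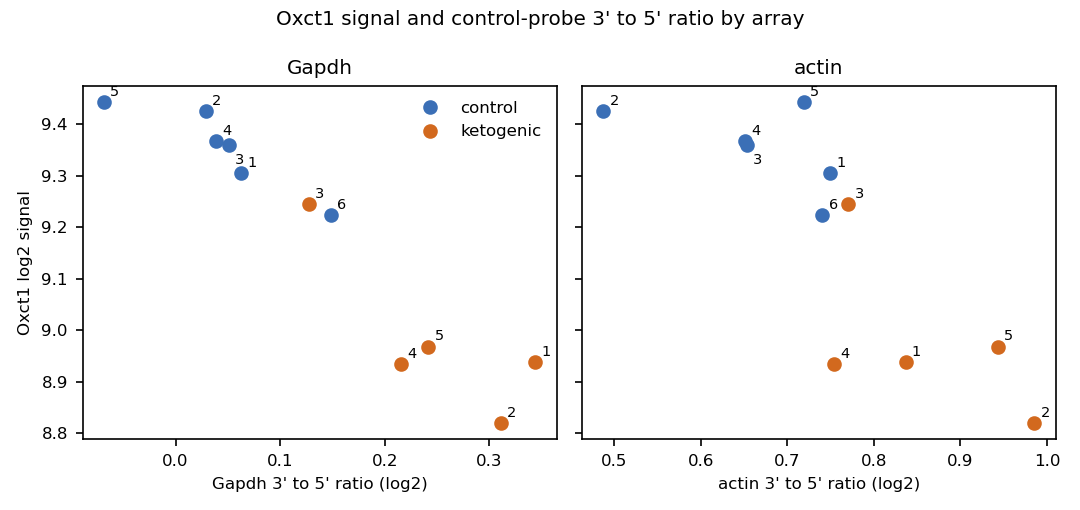
Oxct1 log2 signal against the log2 ratio of 3′ to 5′ control probe sets for Gapdh (left) and actin (right), 1 numbered point per array coloured by diet. In the Gapdh panel the 6 controls descend from 9.44 to 9.22 as the ratio goes from -0.068 to 0.148, and the ketogenic arrays lie at ratios of 0.127 to 0.344.

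Bdh1 encodes 3-hydroxybutyrate dehydrogenase, the enzyme that interconverts 3-hydroxybutyrate and acetoacetate. Its brighter probe set, 1374765_at, ranged in controls from 5.60 to 6.59, with replicates 4 (6.50) and 6 (6.59) high and the other 4 at or below 5.83. The ketogenic arrays gave 6.16, 6.02, 6.14, 6.55 and 6.13. They lay inside the control range, above its 4 low arrays. Means were 5.97 ± 0.451 and 6.20 ± 0.204, and the difference of 0.23 (SE 0.19, 95% interval -0.18 to 0.64, adjusted p = 0.425, limma) was within the spread between controls.

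The other Bdh1 probe set, 1368387_at, was too dim to be tested. It gave 2.94 to 3.51 in controls and 2.81, 4.14, 3.52, 3.74 and 4.81 in ketogenic replicates 1 to 5, not far above the floor of 2.33 to which the lowest values were set. The ketogenic values lay above all controls on 4 arrays and below all of them on 1. In a fit with no filter its difference was 0.53 (SE 0.29, 95% interval -0.12 to 1.18, adjusted p = 0.264), with the same sign as that of the brighter probe set.

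Acat1 encodes the mitochondrial acetoacetyl-CoA thiolase, which splits acetoacetyl-CoA into acetyl-CoA. Probe set 1367763_at ranged in controls only from 8.60 to 8.77, and gave 8.55, 7.78, 8.999, 8.47 and 8.68 on the ketogenic diet. Ketogenic replicates 1, 2 and 4 lay below every control, replicate 3 above every control, and replicate 5 among them. The means of 8.69 ± 0.0725 and 8.49 ± 0.447 differed by -0.19 (SE 0.15, 95% interval -0.52 to 0.13, adjusted p = 0.382). The estimate leaned on single arrays: it was -0.02 (adjusted p = 0.925) without ketogenic replicate 2 and -0.32 (adjusted p = 0.0886) without ketogenic replicate 3.

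**Figure D3:**
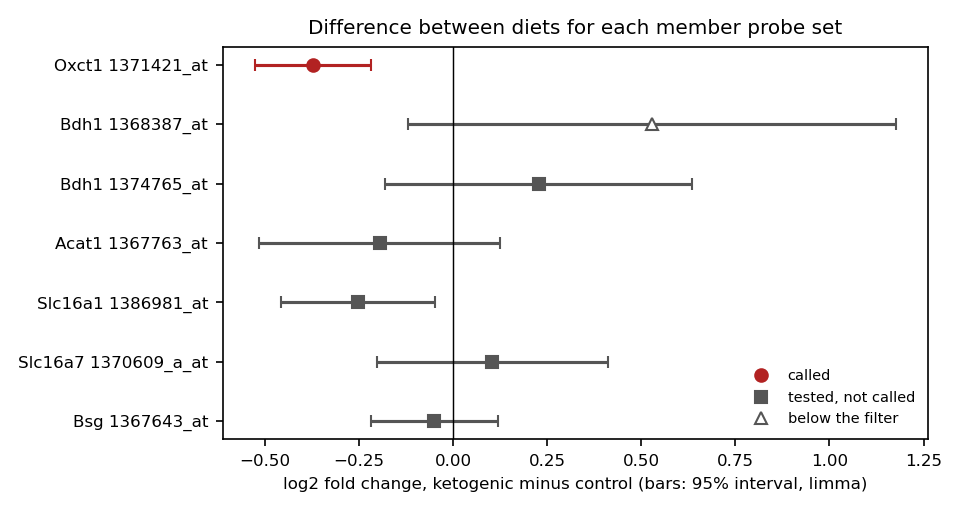
Log2 fold change, ketogenic minus control, of each of the 7 probe sets (points) with its 95% interval from limma (bars); the dim Bdh1 probe set is from the fit with no filter. The Oxct1 interval, -0.53 to -0.22, and the Slc16a1 interval, -0.46 to -0.048, lie below 0, and the other 5 span it.

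Slc16a1 encodes MCT1, which carries lactate, pyruvate and ketone bodies with a proton. Probe set 1386981_at gave 7.36, 7.74, 7.71, 7.93, 7.55 and 7.77 in control replicates 1 to 6 and 7.34, 7.50, 7.49, 7.50 and 7.29 in ketogenic replicates 1 to 5. Except for control replicate 1, every control lay above every ketogenic array. Means were 7.68 ± 0.198 and 7.42 ± 0.101, and the difference of -0.25 (SE 0.096, 95% interval -0.46 to -0.048) missed the threshold (adjusted p = 0.0833, unadjusted p = 0.0190, limma). The call turned on small choices: without control replicate 1 the difference was -0.32 (adjusted p = 0.0296), and on the values as deposited, with no quantile normalization, it was -0.29 (adjusted p = 0.0416). Without ketogenic replicate 3 it was -0.27 (adjusted p = 0.0662).

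Slc16a7 encodes MCT2, a carrier with a higher affinity for its substrates than MCT1. Probe set 1370609_a_at ranged in controls from 6.44 to 7.03 with a median of 6.57, and gave 6.88, 6.999, 6.19, 6.87 and 6.79 on the ketogenic diet. Ketogenic replicate 3 was the lowest of all 11 arrays, and the other 4 lay above every control but replicate 5. The difference between means of 6.64 ± 0.217 and 6.75 ± 0.319 was 0.10 (SE 0.14, 95% interval -0.20 to 0.41, adjusted p = 0.645), it was -0.0046 on the values as deposited, and without ketogenic replicate 3 it was 0.24 (adjusted p = 0.126).

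Bsg encodes basigin, also called CD147, a membrane glycoprotein that MCT1 needs to reach the cell surface. Probe set 1367643_at ranged in controls from 9.71 to 10.05 with a median of 9.94, and gave 9.90, 10.10, 9.79, 9.63 and 9.90 on the ketogenic diet. The ketogenic arrays spanned the control range and passed it slightly at both ends. Means of 9.91 ± 0.120 and 9.86 ± 0.174 gave a difference of -0.05 (SE 0.079, adjusted p = 0.696), whose 95% interval allows a ratio of 0.859 to 1.09. Its sign turned with the scaling, to 0.07 on the values as deposited and 0.10 with each array centred on its 75th percentile.

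**Figure D4:**
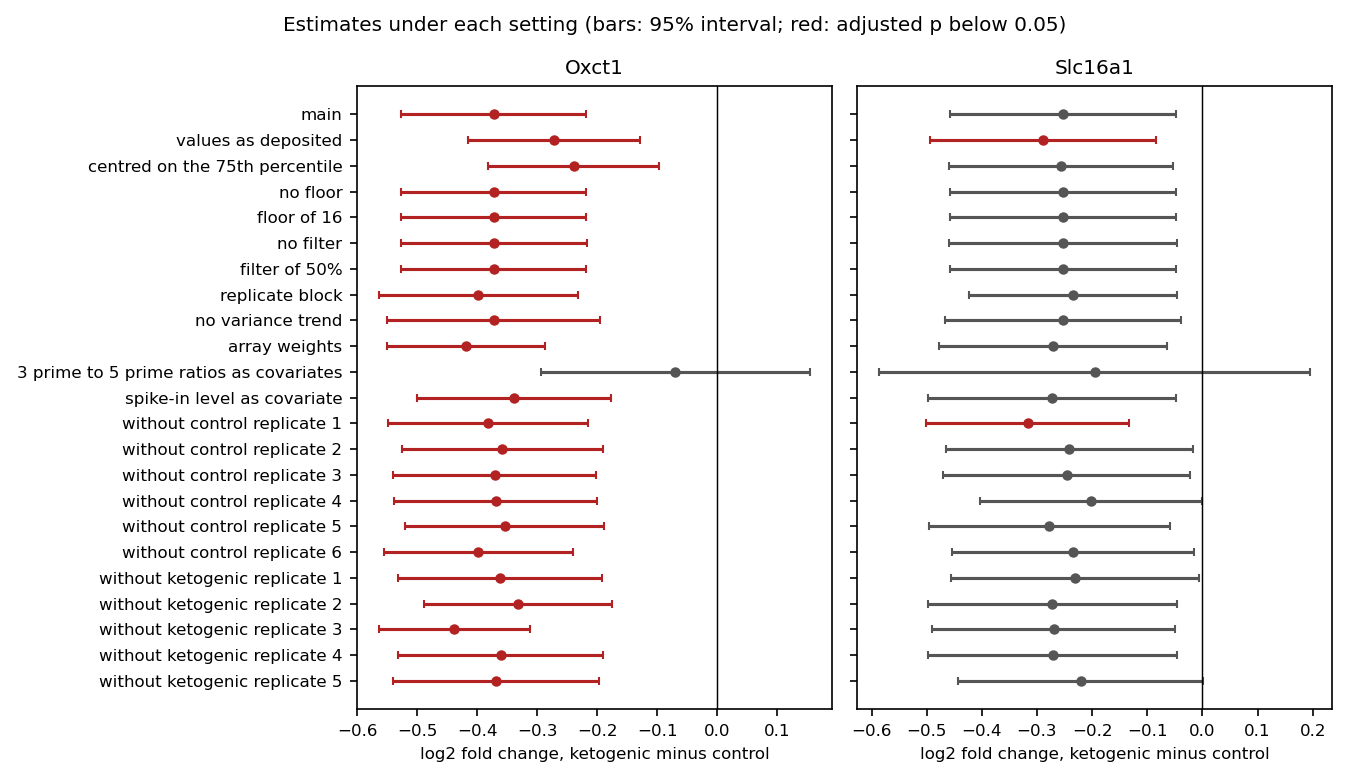
Log2 fold change with 95% interval (bars) of Oxct1 and Slc16a1 under each processing setting, with settings where the probe set was called in red. Oxct1 was called in 21 of the 22 alternatives, all but the fit with both control-probe ratios (-0.07), and Slc16a1 was called without control replicate 1 and on the unnormalized deposited values.

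Oxct1 was called in all 11 fits that left out 1 array, at -0.44 to -0.33, and in 21 of all 22 alternatives. Centring each array on its 75th percentile in place of quantile normalization gave the smallest called difference, -0.24 (adjusted p = 0.0216), and the values as deposited gave -0.27 (adjusted p = 0.0132).

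Genes around these 6 in the same pathways were counted by their brightest tested probe set. Of 15 other enzymes and receptors of ketone body metabolism, 8 had a probe set and 6 could be tested. Of these, 2 fell and 4 were not called, and the median of the 6 was -0.14. Over all 8397 tested genes the median was -0.0032, with 16.9% called and 8.04% called lower. With lists this short, 1 or 2 calls are no result about a pathway. Both genes of this list that fell are subunits of succinyl-CoA synthetase. This citric acid cycle enzyme interconverts succinate and succinyl-CoA, the donor of coenzyme A for SCOT. Sucla2, the ATP-forming subunit, went from 9.27 to 9.33 in controls to 9.11 to 9.19 on the ketogenic diet, with no overlap and a difference of -0.16 (SE 0.046, adjusted p = 0.0350). Suclg1, the subunit shared by both forms of the enzyme, was -0.25 (SE 0.078, adjusted p = 0.0424), and Suclg2, the GTP-forming subunit, was 0.16 (adjusted p = 0.138). These calls lay near the threshold: Sucla2 was called in 8 and Suclg1 in 7 of the 22 alternatives, and the Sucla2 difference was -0.04 on the values as deposited and -0.0079 with 75th percentile centring. Among fits that left out 1 array, Sucla2 was called only without control replicate 1 or 6 or ketogenic replicate 3, and Suclg1 only without control replicate 6 or ketogenic replicate 2. Acat2, the cytosolic thiolase, had the largest estimate of the list, -0.45, with a wide spread (adjusted p = 0.173).

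Of 20 other monocarboxylate carriers, partner proteins and glucose transporters, 9 of the 11 on the array could be tested. Of these, 1 fell, against 8.04% of all tested genes, and 8 were not called, with a median of -0.10. The call was Mpc2, a subunit of the mitochondrial pyruvate carrier, at -0.22 (SE 0.066, adjusted p = 0.0378); it was called in 9 of the 22 alternatives and, among fits without 1 array, only without control replicate 6 or ketogenic replicate 2 or 3. Its partner subunit Mpc1 was at 0.05. Slc2a3, the neuronal glucose transporter GLUT3, had the second largest estimate, -0.19 (adjusted p = 0.284), while Slc2a1, or GLUT1 of the blood-brain barrier, was at 0.04. Embigin (Emb) and neuroplastin (Nptn), which also escort monocarboxylate transporters, were at -0.04 and -0.05, beside the -0.05 of Bsg.

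Lactate dehydrogenase, pyruvate dehydrogenase and the kinases and phosphatases that control it gave 13 tested genes of 16 listed. By limma 0 were called, against 16.9% of all tested genes, 2 were at an unadjusted p below 0.05 and the median was -0.096. The largest estimates were for pyruvate dehydrogenase phosphatases, Pdp2 at -0.24 (adjusted p = 0.250) and Pdp1 at 0.20 (adjusted p = 0.124). Ldha and Ldhb were at -0.07 and -0.13. The listed genes with no tested probe set were not analysed here.

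**Figure D5:**
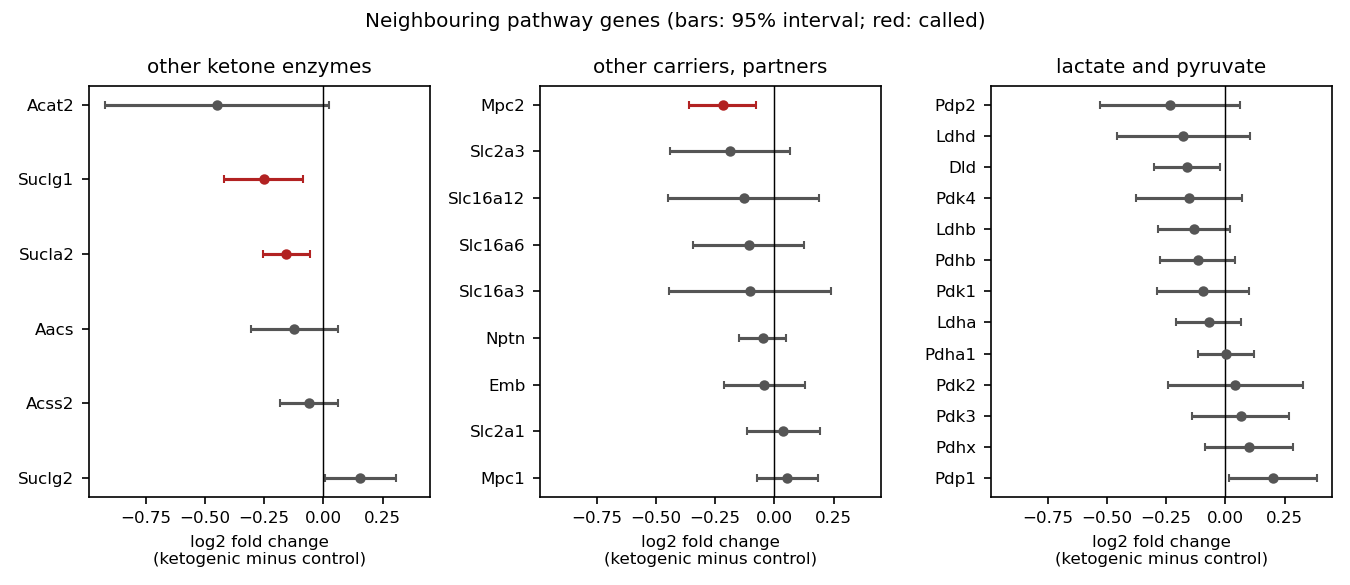
Log2 fold change, ketogenic minus control, with 95% interval (bars) for each tested gene of the 3 neighbouring lists, with called genes in red. Sucla2, Suclg1 and Mpc2 are the called genes, and all 3 lie below 0. Over all tested genes 8.04% were called lower, and so few calls are no result about a pathway.

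Genes whose arrays ran most like each of the 6 were found by the mean absolute difference between log2 profiles over the 11 arrays, each gene centred on its own mean, over all genes by their brightest tested probe set. Oxct1 ran most like Myrip (0.053), Chd6 (0.054) and Atp2a1 (0.057), where the median gene differed by 0.239, and these 3 had differences between diets of -0.33, -0.38 and -0.34. The match covered the arrays of both diets, so differences near that of Oxct1 follow from how these genes were picked. Slc16a1 ran most like Cox18 (0.073), Rhov and Rsrc1, Slc16a7 most like Dnajb5 (0.069), Snx14 and Praf2, and Bsg most like Ddah1 (0.050), Xpc and Rras2. Acat1 ran most like Aplp2 (0.095), Mtss1 and G6pc3, and Bdh1 most like Sh3gl3, whose distance of 0.146 was the widest of these nearest matches.

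The 6 genes are used by several cell types, and in whole tissue fewer cells of a type and less RNA per cell cannot be told apart. Marker lists were therefore read beside them by each gene's brightest tested probe set, as calls and as the sum of linear signals. Over all tested genes 8.85% were called higher and 8.04% lower. With lists this short a share rests on very few genes, so a call or a pair of calls is no result about a cell type. Summed astrocyte signals ran from 10057 to 10923 in controls and 9476 to 11028 on the ketogenic diet. Of 10 markers 2 fell (Gfap -0.39, Aqp4 -0.33), while Fgfr3 was at 0.25 (adjusted p = 0.0724) and Slc1a3 at 0.23 (adjusted p = 0.255). The other Slc1a3 probe sets had the opposite sign, at -0.29 (adjusted p = 0.0427, limma) and -0.25 (adjusted p = 0.114). Glul was at -0.0016 by its brightest probe set, and its others were called lower, at -0.46 and -0.37. The other probe sets of Aqp4, Slc1a2 and Gja1 were not called. Endothelial signals ran from 1291 to 1418 and 1100 to 1356, and 1 of 10 fell (Slco1a4 -0.47, its other probe set -0.14 and not called). Neuronal signals ran from 10922 to 11793 and 10427 to 11713, with 0 of 9 called by limma and 1 at an unadjusted p below 0.05. Among the other probe sets of these neuronal markers, only that of Stmn2 was called, at -0.22 (adjusted p = 0.0145, limma). Among hippocampal principal neuron markers 2 of 8 rose (Camk2a 1.34, Grik4 1.04), the median was 0.096, and the sums did not overlap, at 5165 to 6183 and 6220 to 6923. That separation rested on 1 Camk2a probe set: without it the sums were 4483 to 5001 and 4736 to 5103, and the other tested Camk2a probe sets were at 0.23 and 0.16, neither called. Prox1, Wfs1 and Neurod2 were at -0.14, -0.05 and -0.06, not called.

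Oligodendrocyte sums ran from 9153 to 10925 and 8240 to 10356, and by their brightest probe sets 2 of 7 markers fell (Mag -0.52, Ugt8 -0.42), with a median of -0.25. Cnp and Cldn11 were at -0.26 and -0.25, not called, but their other probe sets were called lower, at -0.39 and -0.45. The other probe sets of Mbp and Mobp were not called. Choroid plexus sums ran from 775 to 2318 and 576 to 977, and 3 of 8 fell (Aqp1 -0.73, Cldn2 -0.68, Folr1 -0.46). The upper end of the control sums rested largely on Ttr, which ran from 6.35 to 10.6 in controls and was not called (-0.29, adjusted p = 0.781, limma). Microglial sums ran from 1428 to 1517 and 1350 to 1648, where 1 of 8 rose (Ctss 0.39) and 2 fell (Aif1 -0.57, Csf1r -0.30). The other Aif1 probe set was at 0.013, not called. Red cell sums were far apart, at 1319 to 1790 and 492 to 590. Of 5 markers 4 fell (Hbb -3.16, Hba-a3 -1.11, Alas2 -1.08, Slc4a1 -0.64) and 1 rose (Bpgm 0.34). The other Slc4a1 probe set was at -0.098, not called. Low values had been raised to the floor, so no marker could be at 0, and detection calls were not used. Several of these calls were lost when 1 array was left out. Of 11 such fits Ugt8 was called in 3, Csf1r and Bpgm in 4, Folr1 in 5 and Cldn2 in 6. Alas2 was called in 8, Mag, Ctss and Grik4 in 9, and Aif1 in 10. The part of these cell types in the Oxct1 and Slc16a1 differences was not tested.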

How the data were processed

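The authors' deposited values were linear probe set intensities, 1 column per array. How scans became intensities is not given in the sources used here. Means after trimming 2% of values at each end were 150.02 to 150.03 on every array. Array medians of log2 values spanned 0.24, above the limit of 0.1, so arrays were quantile normalized, values below the 5th percentile (a signal of 5.02) were set to it, and log2 was taken. After leaving out 57 control probe sets and the 25% with the lowest mean over all arrays, 11899 were tested with limma 3.58.1 in R 4.3.3 (lmFit, eBayes with a variance trend, two-sided) and Benjamini-Hochberg adjustment. Precision is limited by the number of arrays.

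The members and lists were chosen with earlier results of these data known. Ratios of 3′ to 5′ control probe sets and the spike-in level came from deposited values; they had first been computed on normalized values, and were replaced before any member's result had been looked at. Of all probe sets, 12789 had 1 gene symbol, 312 several and 2822 none; 12754 of the first were found in a RefSeq gene table (GRCr8), which gave current symbols and no coordinates. Named genes are the 6 members, called genes and the 2 largest estimates of each pathway list, and the 3 nearest profiles. Suclg2, Mpc1, Slc2a1, Emb, Nptn, Ldha, Ldhb and the cell markers were named, and the sum without Camk2a was made, after their values were seen. Alternatives changed the scaling, floor, filter, variance model, array weights, covariates and replicate block, or left out 1 array. Replicate numbers are shared by both diets, but correlations of same-numbered arrays' deviations were 0.0089 to 0.077, all under 0.1, so they were not taken as pairs.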

Additional observations from a re-analysis of the deposited data

Results flagged for a closer look

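Of 64 groups of arrays examined for a value that lies far from the rest of its diet, 3 had 1, and chance alone gives about 1 in 20, or 3.2. Ketogenic replicate 4 lay at 6.55 for the brighter Bdh1 probe set, where the other ketogenic arrays lay between 6.02 and 6.16. Ketogenic replicate 3 lay at 6.19 for Slc16a7, where the others lay between 6.79 and 6.999; this is the array that also stood apart on the first principal component. For the marker Grik4, control replicate 6 lay at 4.48 and the other controls between 5.78 and 6.32.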

How the results depend on the processing

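The number of probe sets called was 1962 (1026 higher, 936 lower), and 2812 (1076 higher, 1736 lower) on the values as deposited, 3136 with array weights, 907 with spike-in level and 6 with the 3′ to 5′ ratios as covariates, and 806 (without ketogenic replicate 4) to 3165 (without ketogenic replicate 3) leaving out 1 array. It was 855 without ketogenic replicate 2, and 1169 to 1263 without control replicate 2, 3 or 5 or ketogenic replicate 1 or 5. Of these genes, 2 probe sets were called on the values as deposited, 1 to 2 leaving out 1 array, and 0 by limma with the ratios as covariates, where 0 were at an unadjusted p below 0.05.

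With the ratios as covariates the estimates were -0.070 for Oxct1, -0.048 for Bdh1, 0.26 for Acat1, -0.14 for Slc16a7, -0.080 for Ctss and 0.021 for Ugt8, with the sign turned for all of these but Oxct1. On the values as deposited they were -0.29 for Slc16a1 (now called), -0.0046 for Slc16a7 and 0.071 for Bsg, which was 0.10 with 75th percentile centring. Leaving out 1 array gave -0.32 to -0.20 for Slc16a1 and -0.11 to 0.0093 for Bsg, the latter without ketogenic replicate 4. The cause was not tested. The replicate block, which drops control replicate 6, left 1815 probe sets called and 1 of these genes, Oxct1 at -0.40 (adjusted p = 0.0119, limma); it changed no call of the 6 genes. Of the 5 ketogenic arrays, only replicates 3 and 4 correlated best with the control of their own number. Taking the mean of all tested probe sets of a gene changes nothing, since each of the 6 has 1. In the controls, r between Oxct1 and the Gapdh ratio was -0.910 on the values as deposited, an alternative chosen after seeing the data.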
